A study of Mus musculus with 30 samples.

Results

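The libraries described here come from thioglycollate-elicited mouse macrophages treated with GW3965, a synthetic non-steroidal agonist of the liver X receptors, and from macrophages given the solvent alone. They are the 3 libraries labelled GW3965 and the 3 labelled vehicle in the macrophage table, 6 of the 30 libraries of the series. The series compared ligands of these receptors in macrophages and in primary mouse hepatocytes. GW3965 was given at 1 uM, and the vehicle was DMSO or ethanol. Both groups were grown in RPMI with 10% serum, moved 24 hours before the ligand to a medium that held mevalonate at 50 uM, mevastatin at 10 uM and serum poor in lipid, and kept in it with the ligand for 18 to 20 hours. The vehicle cells therefore carry the lipid starvation and the statin, an inhibitor of the mevalonate pathway, as much as the treated cells do. Strain, sex, age, number of mice and whether cells were pooled are not given in the sources used here, and the replicates are described only as run in triplicate, so p-values measure the spread between these libraries, which may be technical. Polyadenylated RNA was sequenced, and the comparison asks what GW3965 changed across the genome in this cell type.

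Liver X receptors are nuclear receptors that bind oxidised sterols and desmosterol and act on DNA as partners of retinoid X receptors. In macrophages they are known for switching on cholesterol export through ABC transporters, for inducing SREBP-1c, the factor that drives fatty acid synthesis, and for dampening inflammatory genes. A separate factor, SREBP-2, drives cholesterol synthesis and uptake when membrane sterol is low. The DNA element that liver X receptors are best known for is a direct repeat of 2 half-sites with 4 bases between the hexamers.

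Promoter sequences of some genes that rose are shown first. Abca1, Abcg1, Srebf1, Scd1 and Mylip were chosen as known targets, but Abcg1 and Scd1 had no window in the promoter set used. Fasn and Acsl3 were added because their windows hold such an element, and for Srebf1 the window that holds it was taken. The sequences printed therefore do not show how common the element is among genes that rose. The window is the 250 bases before a transcript start, on the gene's strand, in RefSeq sequence on GRCm38.p6, which is the mm10 build of the deposited tables. The motif was searched on both strands as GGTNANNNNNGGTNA. Capitals mark it in Abca1, Srebf1, Fasn and Acsl3, where it lies on the opposite strand. In Mylip, which has no such letters in its window, capitals mark TATAAA.
Abca1: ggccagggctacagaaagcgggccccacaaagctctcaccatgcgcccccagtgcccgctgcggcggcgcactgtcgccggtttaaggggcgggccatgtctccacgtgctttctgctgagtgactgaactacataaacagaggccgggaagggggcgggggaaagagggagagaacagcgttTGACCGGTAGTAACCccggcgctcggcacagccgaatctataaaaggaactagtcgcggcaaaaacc
Srebf1: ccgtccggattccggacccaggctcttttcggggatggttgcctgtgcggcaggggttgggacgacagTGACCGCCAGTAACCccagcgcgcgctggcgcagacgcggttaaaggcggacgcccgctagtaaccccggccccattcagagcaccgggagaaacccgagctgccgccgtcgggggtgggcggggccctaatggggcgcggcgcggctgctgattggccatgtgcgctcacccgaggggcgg
Fasn: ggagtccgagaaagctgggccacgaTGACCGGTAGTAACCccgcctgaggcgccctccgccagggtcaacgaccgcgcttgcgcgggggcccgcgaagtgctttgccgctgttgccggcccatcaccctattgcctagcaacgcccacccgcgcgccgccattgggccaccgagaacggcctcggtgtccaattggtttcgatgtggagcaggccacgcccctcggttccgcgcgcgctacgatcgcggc
Acsl3: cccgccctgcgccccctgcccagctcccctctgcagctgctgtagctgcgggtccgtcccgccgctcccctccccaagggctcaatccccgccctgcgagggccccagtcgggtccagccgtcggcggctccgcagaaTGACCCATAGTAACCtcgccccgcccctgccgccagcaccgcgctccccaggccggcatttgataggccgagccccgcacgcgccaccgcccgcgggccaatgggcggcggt
Mylip: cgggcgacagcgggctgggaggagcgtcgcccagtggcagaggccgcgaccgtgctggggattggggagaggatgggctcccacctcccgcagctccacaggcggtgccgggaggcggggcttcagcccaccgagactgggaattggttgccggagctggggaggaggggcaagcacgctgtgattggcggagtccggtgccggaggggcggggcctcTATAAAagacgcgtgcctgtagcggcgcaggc

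The Abca1 window is chr4:53159896-53160145 on the minus strand, and its element, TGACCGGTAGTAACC, spans positions -67 to -53 from the start, upstream of a TATAAA at -29 to -24. Fasn holds the same 15 letters at positions -225 to -211 of chr11:120824548-120824797, minus strand. The Acsl3 element, TGACCCATAGTAACC, spans positions -112 to -98 of chr1:78657575-78657824, plus strand. For Srebf1 the window with an element, TGACCGCCAGTAACC at -182 to -168, is chr11:60210472-60210721 on the minus strand. It precedes a start that lies 10133 bases inside the transcript on which reads were counted, and it is 1 of 3 RefSeq windows of that gene. The Mylip window is chr13:45389492-45389741, plus strand. Over windows of 300 bases (250 before and 50 after the start), 37 of 8751 tested genes (0.423%) held the motif in the window nearest the counted start. Among the 50 largest rises with a window the number was 3 (6.0%), namely Abca1, Fasn and Acsl3, and among the 50 largest falls it was 2 (4.0%). Over all calls with a window it was 5 of 551 genes that rose (0.907%) and 4 of 580 that fell (0.69%). CCAAT, on either strand, was present in 38.1% of all windows, in 56.0% of the 50 largest rises and in 28.0% of the 50 largest falls, and over all calls in 41.9% of genes that rose and 34.5% of those that fell. TATAAA was present in 6.35% of all windows, in 6 of the 50 largest rises, in 4 of the 50 largest falls, in 5.81% of all genes that rose and in 8.79% of all that fell. The core of the sterol element bound by SREBP factors, TCACNCCAC, was in 1.01% of all windows, in 0 of the 50 largest rises and 0 of the 50 largest falls, in 10 of the 551 genes that rose (1.81%) and in 5 of the 580 that fell (0.862%). A match describes letters in a window and is not a measured binding site.

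The 6 libraries held 4697395 to 15685961 exon counts. The GW3965 libraries were the shallower ones, with 4697395, 6976590 and 8886528 counts against 10549773, 15685961 and 11657148 for vehicle. Between 13622 and 15814 genes had at least 1 count. The label of the cells was checked against markers: the 8 macrophage markers in the table summed to 15140 to 16510 CPM in each library, CPM being counts scaled to a common library total. Markers of other cells differed in level. Those of B cells summed to at most 3.63 CPM and those of T and NK cells to at most 4.19 CPM. Neutrophil markers summed to 91.7 to 105 CPM, with S100a9, Mpo, Camp and Retnlg at 0 in the 6 libraries and Csf3r holding most of the sum. Endothelial markers summed to 126.4 to 129.5 CPM with GW3965 and to 137.0 to 168 CPM with vehicle, mostly Vwf and Kdr, neither of which passed the test. Hepatocyte markers summed to 751 to 811 CPM with GW3965 and to 691 to 734 CPM with vehicle, and the groups did not overlap. Trf, the transferrin gene, made up nearly all of that sum and did not pass (0.14 ± 0.06), and Apoa1, Ttr, Cyp2e1, Tat and Fgb were at 0. The part of these markers in the changes was not tested. Fibroblast markers were present, at a sum of 281.9 to 285.5 CPM with GW3965 and 304.4 to 391.6 CPM with vehicle. Of the 8 fibroblast markers tested, Dcn fell by 0.38 on the log2 scale, and this call was lost without GW3965 replicate 1 or without vehicle replicate 3 (highest adjusted p over 12 other settings 0.182). In bulk RNA fewer cells of a type and less RNA per cell cannot be told apart. Rn45s, the ribosomal RNA precursor and a sign of how completely ribosomal RNA was removed, stood at 1360.4, 1014 and 809 CPM with GW3965 and at 528, 453 and 503 CPM with vehicle, a log2 difference of 1.10 ± 0.11. Its part in the other changes was not tested.

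Of 24063 genes in the table, 11544 had enough counts to be tested, and 1527 of these (13.2%) passed an adjusted p of 0.05 in the edgeR quasi-likelihood test. With GW3965, 755 genes rose (6.54%) and 772 fell (6.69%). These shares are the background for each list count given below. The median change was 0.36 on the log2 scale among the genes that rose, -0.38 among those that fell and -0.0019 over all genes tested. The large changes were rises. A rise of more than 2-fold was seen for 102 genes, of more than 4-fold for 30 and of more than 8-fold for 11, whereas 37 genes fell by more than 2-fold and 0 by more than 4-fold. For 3279 genes (28.4%) the 3 GW3965 values and the 3 vehicle values did not overlap, and this held for 1469 of the 1527 genes that passed the test. Among genes over 100 CPM on average 323 of 1807 rose and 291 fell, with a median size of 0.30 on the log2 scale, whereas among genes under 5 CPM 37 of 2129 rose and 38 fell, with a median size of 1.14.

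**Figure D1:**
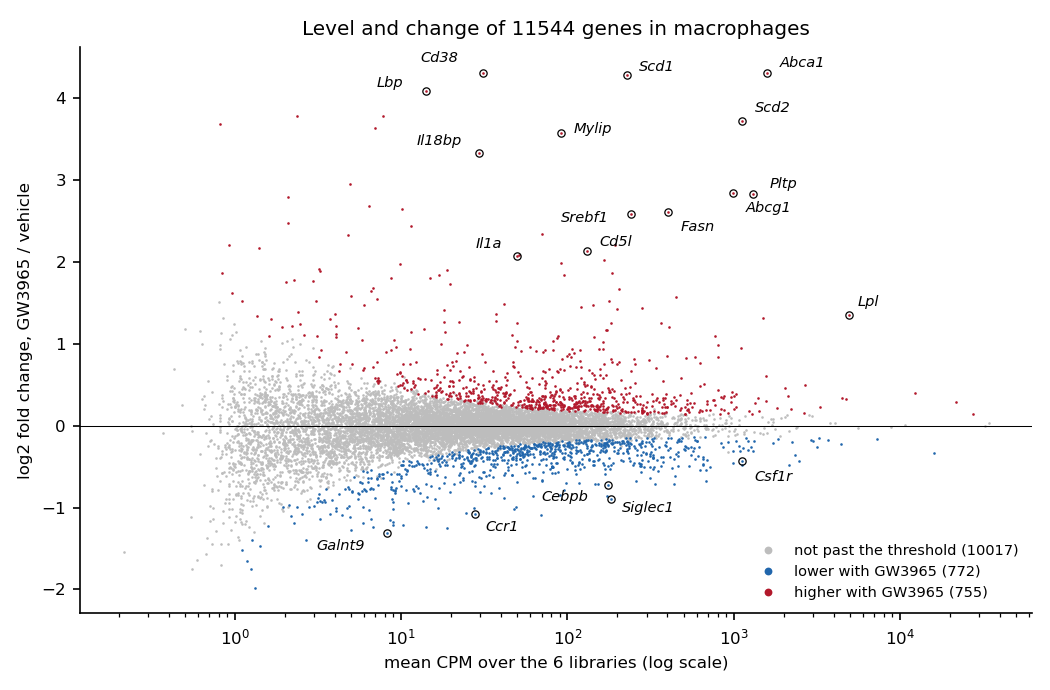
Mean CPM over the 6 macrophage libraries (log axis) against the log2 fold change with GW3965 for the 11544 genes tested, with genes past an adjusted p of 0.05 coloured by direction and named genes circled. The rises reach 4.31 at Abca1 and Cd38, and the falls circled end at Galnt9 (-1.31).

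None of the receptors themselves passed the test. In the list of liver X and retinoid X receptors and their cofactors 0 of 16 tested members rose and 0 fell, with a median of -0.04. The change of Nr1h3, which encodes LXR alpha, was 0.09 ± 0.07 (SE, log2), with means of 73.8 CPM with GW3965 and 69.8 CPM with vehicle. Nr1h2, which encodes LXR beta, changed by -0.05 ± 0.06 at 104 and 107 CPM, and Rxra by 0.06 ± 0.06 at 194 and 185 CPM. The groups overlapped for each of these 3 genes.

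The genes of sterol efflux and lipoprotein handling rose: 7 of the 9 tested members of this list passed, 0 fell, and the median was 1.80. Abca1, the transporter that loads cholesterol onto lipid-poor apolipoprotein A-I, stood at 3076, 3043 and 2992.5 CPM with GW3965 and at 139.89, 161 and 159 CPM with vehicle. That is a 19.8-fold rise (log2 4.31 ± 0.05, adjusted p 4.81e-42), and the 2 groups were far apart. Abcg1, which exports cholesterol to mature lipoprotein particles, went from 229, 251 and 252 CPM to 1754.5, 1783 and 1702 CPM, a 7.16-fold rise. On the deposited per-length scale the transporters ended at like levels, 256 ± 3.56 RPKM for Abca1 and 259 ± 5.80 RPKM for Abcg1 (SD, n = 3), although they began at 13.2 ± 0.87 and 36.8 ± 1.65 RPKM. Pltp, the phospholipid transfer protein of plasma lipoproteins, rose from 311, 321 and 333 CPM to 2470.3, 2258 and 2119 CPM, with the highest value in GW3965 replicate 1. Mylip, a ubiquitin ligase gene, rose 11.9-fold, from 13.7, 14.1 and 14.5 CPM to 169, 163 and 173 CPM. Lpl, a lipase that releases fatty acids from lipoproteins, rose from 2655 to 2863 CPM in the vehicle libraries to 6958 to 7201 CPM, a log2 change of 1.36 ± 0.04. Apoc2, the cofactor of that lipase, rose by 1.80 ± 0.18 from a low level of 3.88 CPM. Apoe was already abundant at 7472 ± 317 RPKM and rose by only 0.40 ± 0.05. The sterol 27-hydroxylase gene Cyp27a1 (0.08 ± 0.09) and Abca7 (-0.10 ± 0.10) did not pass, and Abcg4, Abcg5, Abcg8, Apoc1 and Apoc4 had too few counts to be tested.

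Genes of the SREBP-1c programme of fatty acid synthesis also rose, with 11 of 21 tested members up, 0 down and a median of 0.28. Srebf1, which encodes SREBP-1, went from 62.2, 74.0 and 70.6 CPM to 416, 425 and 406 CPM (log2 2.59 ± 0.06, adjusted p 1.18e-31). Reads were counted on 1 transcript of Srebf1, so its isoforms are not separated. Scd1, the desaturase that makes oleic acid, rose 19.5-fold, from 20.2, 23.5 and 22.6 CPM to 397, 437 and 465 CPM. Its neighbour Scd2 rose from 159, 164 and 154 CPM to 1979.7, 2119 and 2209 CPM (log2 3.73 ± 0.06). Fasn, which encodes fatty acid synthase, went from 102, 124 and 112.5 CPM to 691, 688 and 692 CPM. The values of these 4 genes did not overlap between groups, and the spread among the treated libraries was small beside the change. Acsl3, an acyl-CoA synthetase, rose by 2.08 ± 0.09, Mid1ip1, an activator of acetyl-CoA carboxylase, by 1.42 ± 0.06, and the carboxylase gene Acaca by 1.27 ± 0.10. Fads2 rose by 1.19 ± 0.18, Elovl5 by 1.08 ± 0.06, Fads1 by 0.53 ± 0.06 and Acly, which makes cytosolic acetyl-CoA, by 0.23 ± 0.05. The acetyl-CoA enzyme gene Acss2 (0.28 ± 0.16) and the elongase gene Elovl6 (-0.07 ± 0.13) did not pass. The microRNA gene Mir5114 rose by 3.78 ± 0.24, but it lies inside Scd2 on the same strand, and reads of Mir5114 and Scd2 cannot be told apart.

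Phospholipid and trafficking genes known as receptor targets were mixed: 4 of 11 tested members rose, 2 fell and the median was 0.05. Arl4c, a small GTPase, rose from 24.1, 21.9 and 23.1 CPM to 121, 119 and 111 CPM (log2 2.34 ± 0.07). Lpcat3, which inserts polyunsaturated acyl chains into phospholipids, rose from 39.0, 43.1 and 43.0 CPM to 142, 151 and 155 CPM (1.84 ± 0.07). Tmem135 rose by 0.67 ± 0.07 and Lpcat1 by 0.45 ± 0.09, whereas Lpcat2 fell by 0.55 on the log2 scale and Abca9 by 0.39. Smpdl3a, described elsewhere as a target of these receptors in human cells, changed by -0.13 ± 0.05 and did not pass.

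**Figure D2:**
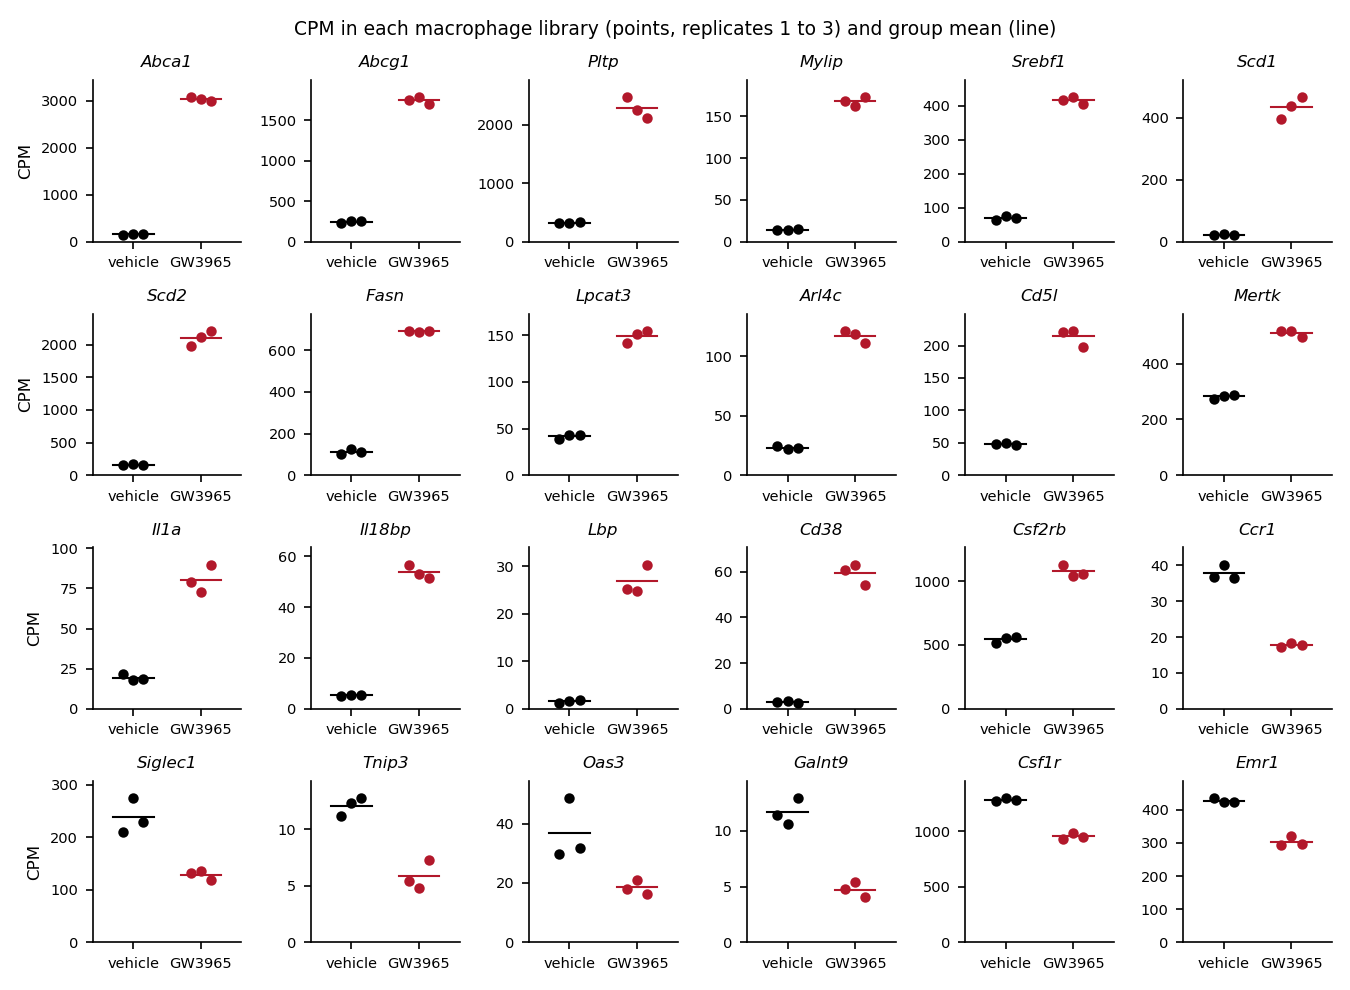
CPM of 24 named genes in the 3 vehicle and the 3 GW3965 libraries of macrophages; each panel has its own linear axis from 0, points are libraries and lines are group means. Abca1 moves from 139.89 to 161 CPM with vehicle to 2992.5 to 3076 CPM with GW3965, and in the panels of Ccr1, Siglec1, Tnip3, Oas3, Galnt9, Csf1r and Emr1 the GW3965 points lie below the vehicle points.

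Cholesterol synthesis changed little beside these rises. In the mevalonate arm 2 of 10 tested genes rose and 1 fell (2 without GW3965 replicate 2; median 0.11), and among the enzymes after squalene 1 of 12 rose and 3 fell (median 0.03). The step into sterols proper, Fdft1 (squalene synthase), rose by 0.39 ± 0.05, from 341, 334 and 343 CPM to 429.78, 459 and 441 CPM. Fdft1 overlaps Ctsb on the opposite strand, a gene that also rose (0.29 ± 0.04). Pmvk rose by 0.54 ± 0.12 and Lbr by 0.55 ± 0.11. Hmgcs1, the synthase at the head of the pathway, fell by 0.32 on the log2 scale, and Sqle, the squalene epoxidase, by 0.35. Cyp51, a sterol demethylase, changed by -0.00 ± 0.07 and did not pass. Of the other SREBP-2 targets and processing genes 2 of 11 rose and 0 fell, and Srebf2, which encodes SREBP-2, changed by -0.08 ± 0.06. Among those that rose Insig1, which holds SREBP factors in the endoplasmic reticulum, rose by 0.20 ± 0.06, a call that was lost in 5 of 12 other settings (highest adjusted p 0.126). For storage and transfer of cholesterol 5 of 21 rose and 1 fell, and 3 rose without GW3965 replicate 2 or 3. Gramd1b, a carrier of sterol from the plasma membrane to the endoplasmic reticulum, rose by 0.90 ± 0.07, the receptor gene Lrp1 by 0.34 ± 0.07 and the scavenger receptor gene Msr1 by 0.32 ± 0.06. Lipa, the lysosomal acid lipase, fell by 0.26. Soat1, which esterifies cholesterol in macrophages, changed by -0.07 ± 0.06. In the triglyceride and lipid droplet list 2 of 17 rose and 3 fell, with Lpin1 at 0.45 ± 0.06 and Mgll, a monoglyceride lipase, falling by 0.71, from 418, 409 and 419.96 CPM to 243, 265 and 255 CPM. In that list 1 rose without GW3965 replicate 1 or 2 or vehicle replicate 1 or 3, and 1 fell without vehicle replicate 1 or 2.

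Several genes outside lipid metabolism rose as strongly as the transporters. Cd38, an enzyme that consumes NAD, went from 2.86, 3.37 and 2.53 CPM to 60.9, 63.1 and 54.2 CPM, a 19.9-fold rise (log2 4.31 ± 0.14). Of the other 15 tested genes of NAD metabolism, Nadk fell by 0.31 on the log2 scale. Bst1, a close relative of Cd38, fell by 0.36 and Nampt, which makes the precursor of NAD, rose by 0.17 ± 0.05, but these calls were lost in 8 and 6 of 12 other settings (highest adjusted p 0.374 and 0.135). Lbp, a carrier of bacterial lipopolysaccharide, rose from 1.29, 1.56 and 1.86 CPM to 25.3, 24.8 and 30.4 CPM (4.09 ± 0.20). Il18bp, a secreted decoy that binds interleukin 18, rose from 5.08, 5.44 and 5.32 CPM to 56.8, 52.9 and 51.4 CPM (3.33 ± 0.11). The target of that decoy, Il18, changed by -0.26 ± 0.18 and did not pass. Vipr1, a receptor for vasoactive intestinal peptide, rose by 2.95 ± 0.25, Stab2, a scavenger receptor, by 2.68 ± 0.23 and Mefv, which encodes pyrin, by 2.65 ± 0.20, all from below 5 CPM. Bach2os rose by 3.64 ± 0.22, and it lies antisense within Bach2, which itself rose by 1.14 ± 0.15. Strand is not stated for the counting, so these reads cannot be divided between them.

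Inflammatory genes moved in both directions, more often down. Of the NF-kB factors and inflammatory outputs 9 of 20 tested genes fell and 1 rose, with a median of -0.25 against -0.0019 over all genes. Tnip3, an inhibitor of NF-kB signalling, fell from 11.2, 12.3 and 12.7 CPM to 5.40, 4.80 and 7.29 CPM (log2 -1.02 ± 0.18). Nfkbie, another inhibitor, fell by 0.87, Icam1, an adhesion molecule, by 0.76 and Relb by 0.39. Tnf fell from 9.78, 12.7 and 10.5 CPM to 6.04, 4.21 and 8.75 CPM. That fall of 0.77 rests on the lower of these values, since the call was lost without GW3965 replicate 2 (adjusted p 0.1). The gene that rose (2 rose without GW3965 replicate 1) was Tnfaip3, a brake on the same pathway, from 88.4, 84.3 and 89.1 CPM to 148, 144 and 161 CPM. Members that fell include inhibitors as well as outputs, and Il6, Il12b, Nos2 and 5 others had too few counts to be tested. Among Toll-like receptors and their adaptors 6 of 21 fell and 2 rose. Tlr13 fell from 544, 532 and 541 CPM to 333, 343 and 374 CPM and Ticam2, an adaptor of Tlr4, by 0.42, while Tlr4 rose by 0.35 ± 0.06. In the interleukin 1 and 18 list 2 of 14 rose and 1 fell. Il1a rose from 21.7, 18.1 and 18.4 CPM to 78.8, 72.7 and 89.9 CPM (2.07 ± 0.09), and Gm14023, which overlaps it on the opposite strand, rose by 1.68.

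Among chemokines and their receptors 2 of 18 rose and 2 fell, where 6.54% of all genes tested rose and 6.69% fell. Ccl9 rose from 32.8, 39.0 and 39.6 CPM to 131, 155 and 156 CPM (1.99 ± 0.08), and its neighbour Ccl6 from 449, 475 and 464 CPM to 699, 786 and 872 CPM. The receptor gene Ccr1 fell from 36.7, 40.2 and 36.4 CPM to 17.3, 18.5 and 17.8 CPM. Of the interferon-stimulated genes 5 of 31 fell and 1 rose (median -0.23), and 3 fell without GW3965 replicate 2. Oas3, a sensor of double-stranded RNA, fell from 29.8, 48.5 and 31.6 CPM to 18.1, 21.1 and 16.3 CPM. Vehicle replicate 2 was the highest of these libraries for Oas3, at 48.5 CPM, and also for Oasl2 at 65.5 CPM. Irf8, a transcription factor of the macrophage lineage, rose by 0.75 ± 0.06. Isg15 (-0.51 ± 0.29) and Ifit1 (-0.04 ± 0.27) did not pass.

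Genes for the engulfment of dying cells split: 7 of 21 tested members rose and 5 fell. Cd5l, a secreted protein that supports macrophage survival, rose from 48.3, 50.1 and 46.8 CPM to 221, 223 and 199 CPM (2.14 ± 0.07). Mertk, a receptor for apoptotic cells, rose from 274, 285 and 289 CPM to 516, 517 and 497 CPM (0.85 ± 0.05). Tgm2 rose by 0.54 ± 0.06 and Axl by 0.36 ± 0.08. The bridging molecule gene Gas6, which links dying cells to Mertk and Axl, fell by 0.41 and Mfge8 by 0.17. The complement genes C1qa and C1qb, whose products form 1 complex, moved in opposite directions, with C1qa falling by 0.48 and C1qb rising by 0.32 ± 0.05.

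Genes that define macrophages fell more often than they rose. Of the lineage receptors and factors 15 of 28 tested members fell and 5 rose, with a median of -0.22. Siglec1, a sialic acid receptor, fell from 211, 274 and 229.73 CPM to 132, 136 and 118 CPM (log2 -0.90 ± 0.08). Itgax fell by 0.68, Itgam by 0.44 and Csf1r, the receptor for the growth factor M-CSF, by 0.43, from 1270.2, 1297 and 1280.0 CPM to 928, 981 and 952 CPM. Emr1, which encodes the F4/80 antigen, fell from 435, 422 and 424 CPM to 293, 319.69 and 297 CPM. Cebpb, a transcription factor, fell by 0.72. Among the 5 that rose were Csf2rb, the shared chain of the GM-CSF receptor (0.98 ± 0.05), Irf8, Fcgr1 (0.38 ± 0.07) and Trem2 (0.15 ± 0.05). Csf2rb went from 516, 555 and 561 CPM to 1130.5, 1044 and 1057 CPM. Lyz2, one of the most abundant transcripts, changed by 0.01 ± 0.05. The summed macrophage markers were lower with GW3965, at 15140 to 16110 CPM against 16420 to 16510 CPM. That sum includes Csf1r, Itgam and Emr1, so it is not separate from the falls given here. The part of cell number in these falls was not tested. Of the metalloproteinases and their inhibitors 7 of 13 fell and 1 rose, with Adam17, which sheds Tnf from the cell surface, falling by 0.45 and Mmp19 by 0.40. The rise was lost without GW3965 replicate 2 or vehicle replicate 2. For antigen presentation on MHC class II 3 of 13 fell, of which Cd83 fell by 0.39, and H2-Ab1 (0.06 ± 0.10) and Cd74 (0.05 ± 0.07) did not pass. The other 2 falls, H2-DMa by 0.54 and H2-DMb1 by 0.42, were lost without GW3965 replicate 2 (highest adjusted p over 12 other settings 0.583 and 0.205), which leaves 1 of 13. Among alternative activation genes 3 of 12 fell, among them Egr2 by 0.30 and Mrc1, the mannose receptor gene, by 0.20.

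**Figure D3:**
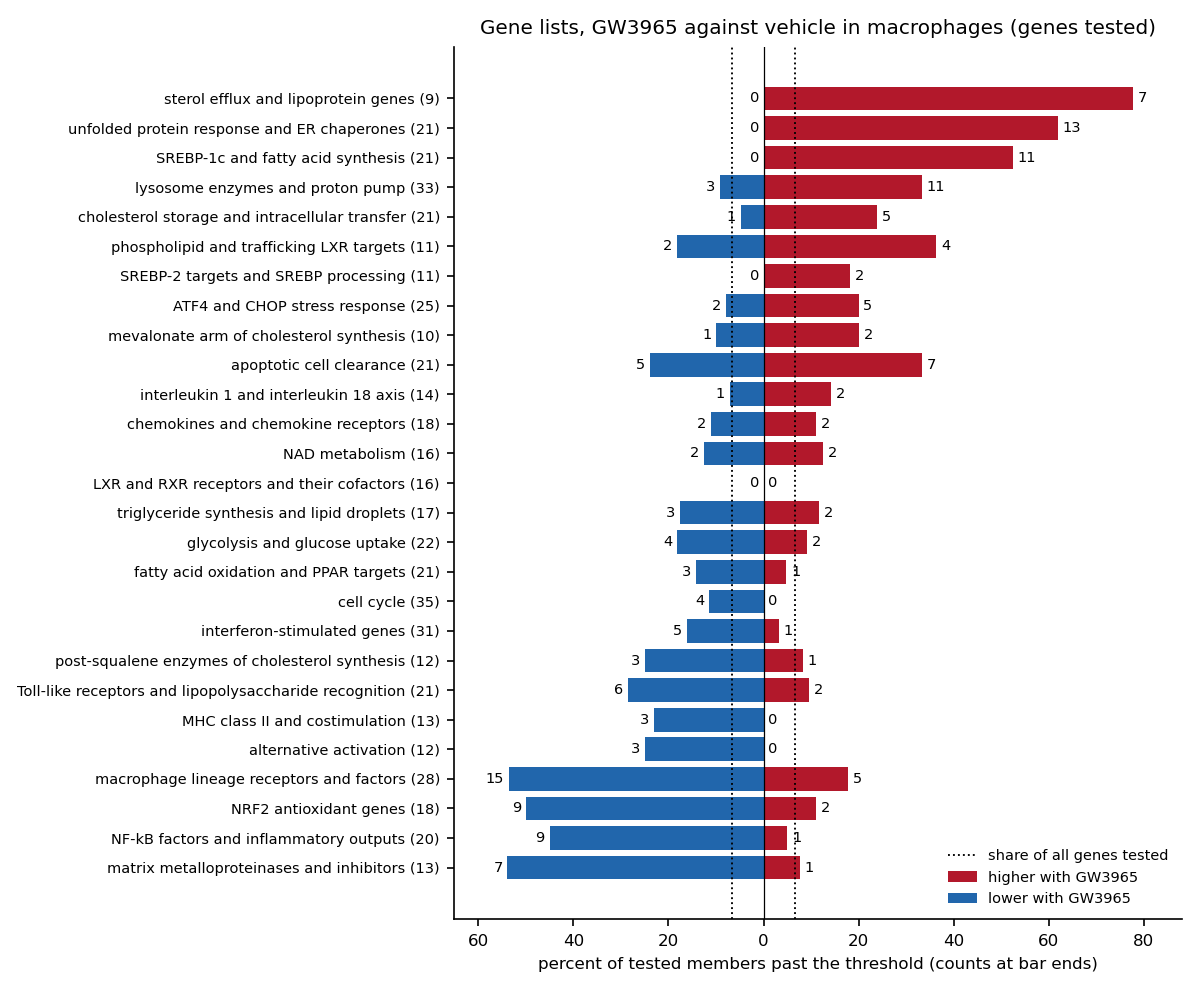
Share of the tested members of 27 gene lists that rose (right) or fell (left) with GW3965, with counts at the bar ends, the number tested in parentheses and dotted lines at the share over all genes (6.54% up, 6.69% down). Sterol efflux (7 of 9 up), ER chaperones (13 of 21 up) and SREBP-1c genes (11 of 21 up) reach far to the right and metalloproteinases (7 of 13 down) far to the left.

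Genes of the unfolded protein response and the chaperones of the endoplasmic reticulum rose by small amounts: 13 of 21 passed upward, 0 fell and the median was 0.25. Dnajc3, an inhibitor of eIF2alpha kinases, rose from 143, 125 and 141 CPM to 236, 233 and 231 CPM (0.78 ± 0.07). Ern1, which encodes the sensor IRE1, rose by 0.52 ± 0.07, Sdf2l1 by 0.44 ± 0.09, Hyou1 by 0.41 ± 0.06 and Hspa5, the main chaperone of this compartment, by 0.34 ± 0.05. Xbp1 (-0.00 ± 0.07) and Atf6 (-0.05 ± 0.06) did not pass. In the ATF4 and CHOP list 5 of 25 rose and 2 fell. Gdf15, a secreted stress cytokine, rose from 55.8, 56.9 and 57.1 CPM to 111, 101 and 112 CPM, and Mthfd2, a mitochondrial folate enzyme, by 0.62 ± 0.12. Slc7a11, the cystine transporter, fell by 0.69 in the same list.

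The antioxidant genes that NRF2 drives fell in 9 of 18 cases and rose in 2, with a median of -0.17. Gstm1, a glutathione transferase, fell from 394, 381 and 338 CPM to 229.25, 271 and 283 CPM. Gclm, a subunit of the enzyme that starts glutathione synthesis, fell by 0.45, Prdx1, a peroxiredoxin, by 0.38, the ferritin gene Fth1 by 0.33 and Nfe2l2, which encodes NRF2 itself, by 0.28. Txnrd1 (0.29 ± 0.05) and Hmox1 (0.24 ± 0.05) rose. Lysosomal genes moved upward in 11 of 33 cases and fell in 3 (median 0.09), though 6 rose without GW3965 replicate 1, 7 without GW3965 replicate 2 or vehicle replicate 2, and 1 fell without GW3965 replicate 3. Among them Grn rose by 0.36 ± 0.05, Gusb by 0.34 ± 0.04, Ctsl by 0.33 ± 0.05 and the proton pump subunit gene Atp6v1b2 by 0.30 ± 0.05. Of the glycolysis list 2 of 22 rose and 4 fell, with the glucose transporter genes Slc2a6 rising by 0.74 ± 0.12 and Slc2a1 falling by 0.32. Without GW3965 replicate 1 or 2, or without vehicle replicate 1 or 2, the counts were 1 rise and 2 falls, and the falls of Pgam1 and Pdk1 were lost in 5 and 9 of 12 other settings (highest adjusted p 0.227 and 0.199). Fatty acid oxidation and PPAR targets had 1 rise and 3 falls in 21, among them Fabp4, a fatty acid carrier, which fell by 0.40. That rise was lost without GW3965 replicate 1 or vehicle replicate 2, and 2 rose without GW3965 replicate 3. In the cell cycle list 4 of 35 fell and 0 rose, and each of these calls, for Bub1b, Ccnd3, Mki67 and Top2a, was lost in 1 to 11 of 12 other settings. The count was 0 without GW3965 replicate 3 and 2 without GW3965 replicate 2 or without any 1 vehicle library. Over all genes tested 6.54% rose and 6.69% fell.

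Among the largest falls of genes with at least 5 CPM in the higher group were genes outside these lists. Galnt9, a glycosyltransferase, fell from 11.4, 10.6 and 12.9 CPM to 4.75, 5.38 and 4.04 CPM (log2 -1.31 ± 0.18). Clec4n, which encodes the fungal receptor dectin-2, fell by 1.28, Bmp2, a growth factor, by 1.25, Zfyve28 by 1.24 and N4bp3 by 1.23. Bmp2 stood at 27.6, 27.1 and 25.4 CPM with vehicle and at 10.8, 10.0 and 12.5 CPM with GW3965. Cdo1, which oxidises cysteine, fell by 1.19 and Nlrp1b, an inflammasome sensor, by 1.14. H3f3a fell by 1.22 and S100a11 by 1.09, but these genes have near-identical copies elsewhere and their counts are uncertain.

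The GW3965 libraries were also compared directly with those of T0901317, another synthetic non-steroidal agonist of the same receptors, at the same 1 uM. Of 11544 genes 2 passed (0.0173%), with 1 higher (0.00866%) and 1 lower (0.00866%) with GW3965. Without adjustment 718 genes had p below 0.05, and the count of calls was 0 without GW3965 replicate 1 or without T0901317 replicate 2. The gene that was higher was Rn45s, the ribosomal precursor noted above (0.64 ± 0.11), and the lower was Steap3, a ferric reductase, at 144, 144 and 131 CPM against 162, 184 and 178 CPM (log2 -0.33 ± 0.06, adjusted p 0.0184). Abca1 stood at 3142, 2997 and 3099 CPM with T0901317, and the difference was -0.02 with a 95% interval of -0.11 to 0.07. The interval was -0.11 to 0.08 for Abcg1 and -0.13 to 0.10 for Srebf1. Scd1 was at 499, 484 and 541 CPM with T0901317, above the values with GW3965 in these libraries, but the difference of -0.23 (-0.35 to -0.11) did not pass after adjustment (0.297). Among the 102 genes up by more than 2-fold the median difference was -0.01 and the 95% interval lay within 1 log2 unit of 0 for 85. Over all genes it did so for 10320. A test that is not passed does not show equal action, and these intervals are the sizes that remain possible.

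**Figure D4:**
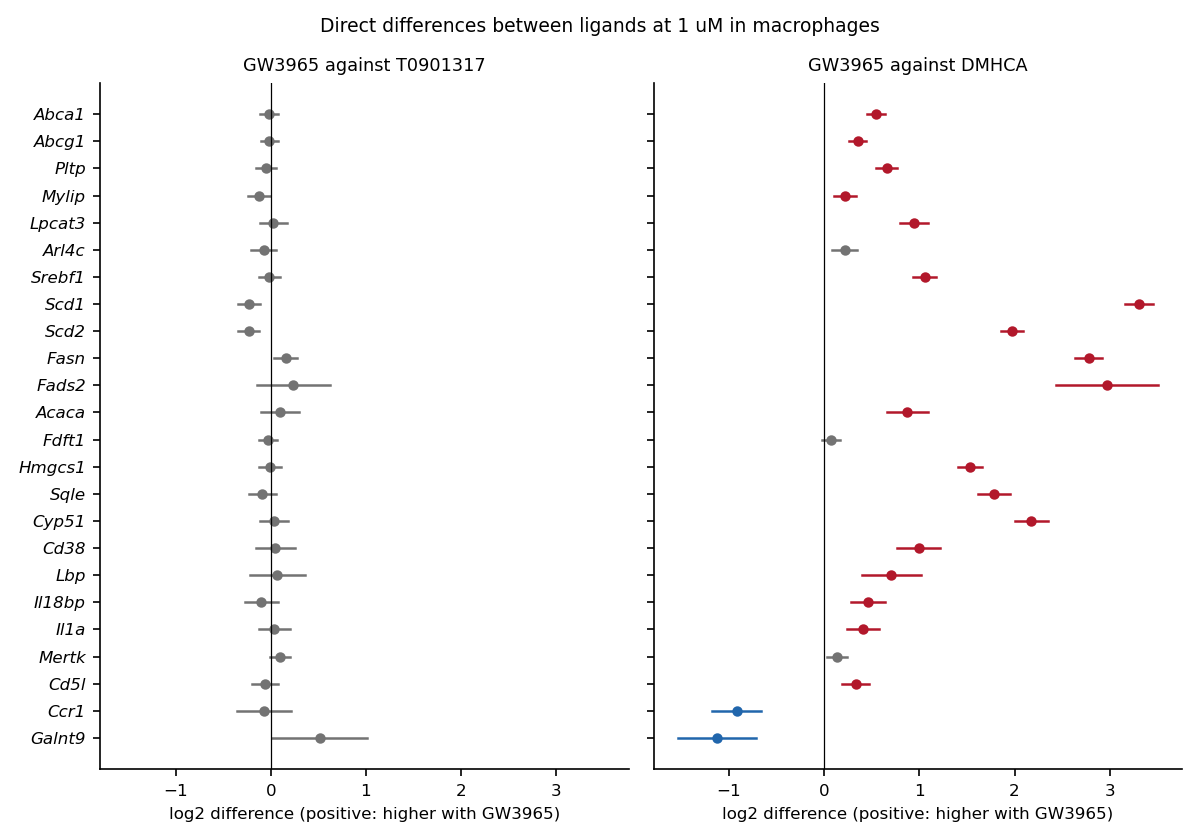
Log2 difference between GW3965 and T0901317 (left) and between GW3965 and DMHCA (right), each at 1 uM in macrophages, for 24 genes, with bars for the 95% interval and colour where the adjusted p is below 0.05. Abca1 lies at -0.02 on the left and at 0.54 on the right, where Scd1 (3.31) and Fasn (2.78) lie further out.

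Against DMHCA, a sterol-derived ligand given at the same dose, GW3965 differed at 391 genes (3.39%), with 235 higher (2.04%) and 156 lower (1.35%). The number lower was 102 without DMHCA replicate 2 and 103 without DMHCA replicate 3. The receptor's export genes were moderately higher with GW3965: Abca1 at 2099.5, 2159.5 and 1999.0 CPM with DMHCA was 0.54 ± 0.05 lower on the log2 scale than with GW3965. The difference was 0.35 ± 0.05 for Abcg1. For Mylip, the ubiquitin ligase gene and not an export gene, it was 0.22 ± 0.06. The fatty acid genes differed much more, with 16 of 21 tested members higher with GW3965 and a median difference of 0.86 against 0.00 over all genes. Scd1 was at 44.8, 44.7 and 42.6 CPM with DMHCA, a difference of 3.31 ± 0.07, Fasn at 111, 89.1 and 103 CPM (2.78 ± 0.07) and Srebf1 at 195, 203 and 201 CPM (1.06 ± 0.06). With DMHCA, Fasn thus stood near its vehicle values of 102, 124 and 112.5 CPM.

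Cholesterol synthesis separated the compounds as well. GW3965 libraries were higher for 8 of 10 genes of the mevalonate arm (median 1.597) and for 11 of 12 of the enzymes after squalene (median 1.54). For Cyp51 the values were 182, 203 and 188 CPM with GW3965, 38.8, 38.4 and 48.1 CPM with DMHCA and 196, 191 and 189 CPM with vehicle. The DMHCA values of Cyp51 lay below those of both other groups, and the comparisons with vehicle and with DMHCA share the GW3965 libraries. Fdft1, which rose with GW3965, did not pass against DMHCA (0.07 ± 0.05). Genes lower with GW3965 than with DMHCA included Galnt9 (-1.124 ± 0.20), Ccr1 (-0.92 ± 0.13), Dab2, an endocytic adaptor (-0.61 ± 0.10), Acp5, an acid phosphatase (-0.56 ± 0.07) and Slco2b1, an anion transporter (-0.56 ± 0.10). Among the immune genes named above, Cd38 was higher with GW3965 than with DMHCA by 0.99 ± 0.11, Lbp by 0.70 ± 0.15 and Il18bp by 0.46 ± 0.09, while Mefv (0.54 ± 0.18) and Tnf (0.46 ± 0.25) did not pass. The 4 fibroblast markers Acta2, Tagln, Col3a1 and Des were higher with GW3965 than with DMHCA, and their part in these differences was not tested.

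In primary hepatocytes treated with the same dose, 2 libraries per group, GW3965 raised 141 of the 13700 genes tested and lowered 85 of them. As in macrophages, the pretreatment lasted 24 hours, with mevalonate at 50 uM and mevastatin at 10 uM, and the ligand was given for 18 to 20 hours. The change in macrophages was set against that in hepatocytes in 1 fit of the 30 libraries, and it differed at 426 of 13700 genes (3.11%), being more positive in macrophages for 216 (1.58%) and more negative for 210 (1.53%). The cell types were cultured in different media and carry different dates in their titles, so these cannot be told apart from the cell type. Without hepatocyte vehicle replicate 1 the count was 260. Of 100 genes that rose by more than 2-fold in macrophages and could be tested in the joint fit, 17 also rose in hepatocytes, 50 rose more in macrophages and 1 rose less. The median change of these 100 genes was 1.56 in macrophages, where they were selected, and 0.23 in hepatocytes. Selection on the rise in macrophages favours a larger change there. The counts of 50 and 1 and these medians are therefore a description and not a test of the cell types.

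Lipid genes were among the 17 that rose in both cell types. Abca1 went from 161 and 133 CPM to 693 and 719 CPM in hepatocytes, a log2 change of 2.26 ± 0.08 that was smaller than in macrophages by 2.04 ± 0.10. Scd1 began higher in hepatocytes, at 941 and 916 CPM, and reached 4609 and 4661 CPM (2.32 ± 0.08). Srebf1 rose by 1.23 ± 0.09, Fasn by 1.124 ± 0.08 and Lpcat3 by 0.86 ± 0.08, each by less than in macrophages. Mid1ip1 (1.07), Rnf145, a ubiquitin ligase gene (1.26) and Sdc3, a syndecan gene (1.31), rose in hepatocytes with no difference that passed between the cell types. Lpl is the gene that rose less in macrophages: it went from 1.88 to 9.44 CPM in hepatocytes, a change of 2.21. Abcg1 and Cd5l rose from under 1 CPM there, by 4.08 ± 0.35 and 3.35, and the difference from macrophages did not pass (adjusted p 0.175 and 0.0572). Genes typical of macrophages moved in both directions in the hepatocyte libraries. From vehicle to GW3965, Csf1r went from 2.20 to 6.22 CPM and Siglec1 from 0.19 to 2.29 CPM. Gpnmb went from 14.5 to 2.25 CPM and Itgam from 1.2 to 0.46 CPM. The part of other cells in the hepatocyte changes, those of Lpl, Abcg1 and Cd5l included, was not tested. The immune genes Lbp, Il18bp and Cd38 rose in macrophages and did not pass in hepatocytes, and here the difference itself was tested. It was 4.04 ± 0.29 for Lbp, which stood at 17.6 and 16.8 CPM in treated and vehicle hepatocytes, 2.82 ± 0.20 for Il18bp and 4.75 for Cd38, which stood at 1.31 and 1.74 CPM there. Pltp (2.60 ± 0.25), Arl4c (2.01 ± 0.15) and Stab2 (2.23 ± 0.33) also rose more in macrophages. For other immune genes that rose in macrophages the outcome was mixed. The difference passed for Ccl9 (1.64 ± 0.22), Csf2rb (1.82 ± 0.48) and Tnfaip3 (0.48 ± 0.13). Csf2rb was low in hepatocytes, at 0.66 CPM with GW3965 and 0.98 CPM with vehicle. Its change there, -0.84 ± 0.46, did not pass but adds to the difference. The difference did not pass for Il1a (2.00 ± 0.66), Ccl6 (0.53 ± 0.32), Irf8 (0.13 ± 0.26), Mefv or Vipr1, which were all under 5 CPM in hepatocytes.

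**Figure D5:**
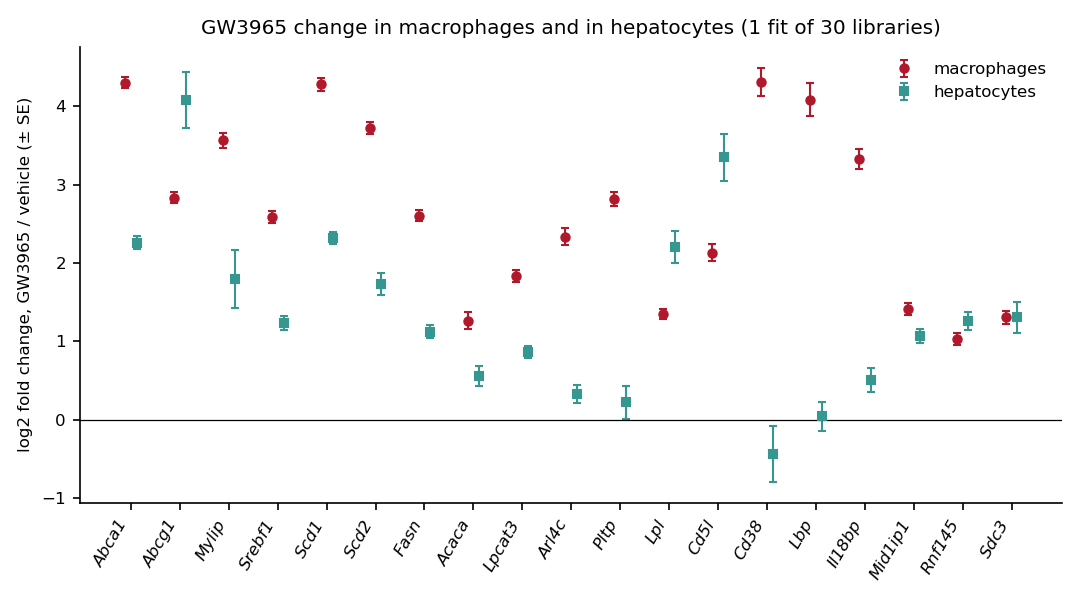
Log2 fold change with GW3965 in macrophages (circles) and hepatocytes (squares) for 19 genes from 1 fit of the 30 libraries, with bars for the SE. Abca1 rises in both, by 4.30 and 2.26, whereas Lbp rises by 4.08 in macrophages and changes by 0.04 in hepatocytes.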

How the data were processed

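RNA-seq libraries of mouse macrophages and hepatocytes were aligned with STAR, per the submitters' processing notes, and counted with HOMER over exons, with 1 RefSeq transcript standing for each gene of mm10, per the file headers. Tool versions and strand handling of the counting are not given in the sources used here. The deposited raw counts were tested. The deposited RPKM values, exon reads scaled to transcript length and library total by the authors per the file headers, served only for levels compared between genes.

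Counts of the 18 macrophage libraries were scaled by TMM, filtered for low counts by group and fitted with 1 mean for each of 6 groups in edgeR 4.0.16 (R 4.3.3, limma 3.58.1), with 12 residual degrees of freedom. Each comparison used the quasi-likelihood F-test with Benjamini-Hochberg adjustment over all genes tested and a threshold of 0.05. Errors on log2 fold changes are standard errors. The test was checked on simulated data. The 30 libraries of both cell types were joined by gene symbol (23703 shared) for the difference between cell types. Totals of the 6 GW3965 and vehicle libraries were 4697395 to 15685961 counts, and the deeper vehicle libraries give the more precise means. Replicate pairs differed by more than counting noise, so each library was counted once.

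Named genes were Abca1, Abcg1, Mylip, Srebf1, Scd1 and Fasn, up to 4 called members with the largest change in each list, and the 15 largest rises and 15 largest falls with at least 5 CPM in the higher group and no overlap. Other comparisons took 8 in each direction. Other genes named were chosen after their values were seen. The comparison, the lists and the tests were chosen with earlier results of these data known. Alternatives were RLE scaling, DESeq2 1.42.0, no filter, only the groups compared, thinning to 3862655 counts, a replicate block and leaving out each library. Promoter windows came from RefSeq on GRCm38.p6, matched by symbol for 8751 of 11544 genes. The results of some genes are not reported here.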

Additional observations from a re-analysis of the deposited data

Results flagged for a closer look

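The change with GW3965 differed between macrophages and hepatocytes at 426 genes by a test of the difference itself. For the receptor targets Abca1 (2.04), Scd1 (1.96), Mylip (1.77), Fasn (1.48) and Srebf1 (1.35) the log2 change was larger in macrophages by the amount given. Mylip was low in hepatocytes, at 2.15 CPM with GW3965 and 0.58 CPM with vehicle. For the target Abcg1 the estimate went the other way (-1.24) and did not pass. Cd38 differed by 4.75.

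The largest differences in size were of genes near 0 in hepatocytes. Such a difference need not reflect a large change in macrophages, where Trem2 and Cd74 changed little. Mmp9 changed by -0.47 in macrophages and by 5.23 in hepatocytes, and Siglec1 by -0.90 and 3.98. For Cd38, in contrast, the changes were 4.31 and -0.44. The log2 change in macrophages minus that in hepatocytes was 6.62 for Trem2, 6.16 for Mamdc2, 5.87 for Slamf7, 5.81 for Cdkn1c, 5.63 for Cnrip1, 5.51 for Mmp12 and 5.26 for Bcl2a1b. It was -6.38 for Nfam1, -5.70 for Mmp9, -5.59 for Fabp7, -5.40 for Cd74, -5.25 for Il10ra, -5.09 for Nipal1, -4.90 for Gcnt1 and -4.88 for Siglec1. In hepatocyte vehicle replicate 1 Mmp12 stood at 3.03 CPM and Mamdc2 at 1.78 CPM, and both were at 0 in vehicle replicate 2.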

How the results depend on the processing

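The count of genes that changed with GW3965 against vehicle was 1546 with RLE scaling, 1349 with DESeq2, 1492 without a filter, 1684 with only these groups, 1154 after thinning and 1085 to 1360 without 1 library each. Of the 119 named genes 95 kept their call under all 12 alternatives, 24 lost it under at least 1 and 0 changed direction. Against T0901317 the count was 15 without a filter, 8 with only these groups and 0 to 2 without 1 library each. The difference between cell types gave 244 calls after thinning and 260 to 383 without 1 library each. Without 1 library each, the difference ranged from -0.487 to 6.79 for Mamdc2, from -0.278 to 6.49 for Slamf7, from -0.551 to 6.43 for Cdkn1c and from -1.88 to 7.19 for Mmp12, with the lowest value of each without hepatocyte vehicle replicate 1, where these genes have counts that vehicle replicate 2 lacks. Same-numbered GW3965 and vehicle libraries did not deviate together (r = -0.017, 0.028 and -0.021), so the numbers were not taken as pairs, and not every library correlated best with its own number. With a replicate block the counts were 1580 against vehicle, 2 against T0901317, 429 against DMHCA and 442 between cell types. Depth limits genes under 5 CPM, where the median 95% interval reached 0.685 log2 units to each side, against 0.117 above 100 CPM.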
